A study of Mus musculus with 30 samples.

Results

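The Wnt-dependent pericentral genes described here are 9 genes that mark the hepatocytes around the central vein of the liver lobule, known as targets of Wnt/beta-catenin signalling, and followed in 30 mouse liver mRNA libraries. They are Axin2, Rnf43, Znrf3, Lgr5, Tbx3, Glul, Oat, Slc1a2 and Rhbg, taken by gene symbol from the table of raw counts. All 9 were found among its 48440 genes, and all 9 passed the filter on low counts that left 16304 genes for testing. They were picked for their known roles, as targets of beta-catenin and pericentral genes other than cytochromes, but with earlier results of these data known. Shares of members called are therefore not those of a set chosen without sight of the data.

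The livers were those of female C57BL/6 J mice of wild-type genotype, aged 8 weeks at the implantation of an osmotic pump holding ACBP/DBI at 2.5 mg/mL or PBS. ACBP/DBI is acyl-CoA-binding protein, the product of the gene Dbi. Anorexia was then induced with CDDP, the usual abbreviation of the DNA-crosslinking drug cisplatin, 72 hours after the pump, or with CRS, which the labels do not spell out, 48 hours after it. The groups, 5 libraries each, were CDDP+ACBP, CDDP, CRS+ACBP, CRS, ACBP and PBS, and mice without ACBP are read here as carrying the PBS pump. The time from induction to liver collection is not given in the sources used here, and the labels do not say that each library is a separate mouse, so the p-values measure the spread between these libraries.

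Endothelial cells of the central vein secrete Wnt2, Wnt9b and R-spondin 3, which reach the nearest hepatocytes, bind Frizzled and LRP receptors and keep beta-catenin from being degraded. Beta-catenin then acts with TCF factors on target genes, some of which restrain the pathway in return, and it sets the pericentral programme of glutamine synthesis and drug metabolism against the periportal programme of urea synthesis.

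The members differ in that scheme. Axin2 encodes a scaffold of the complex that marks beta-catenin for degradation, and Rnf43 and Znrf3 encode membrane E3 ubiquitin ligases that remove Frizzled receptors from the cell surface, so that they damp the signal that induces them. Lgr5 encodes a receptor for R-spondins, which hold these ligases back, and Tbx3 a T-box transcription factor. Glul (glutamine synthetase), Oat (ornithine aminotransferase), Slc1a2 (a glutamate transporter also made by astrocytes) and Rhbg (an ammonium transporter) carry out the capture of ammonia as glutamine.

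In mm10 the feedback genes lie at chr11:108920349-108950783 on the plus strand (Axin2), chr11:87662722-87735539 on the plus strand (Rnf43) and chr11:5276324-5444847 on the minus strand (Znrf3). Lgr5 lies at chr10:115450311-115587780 on the minus strand and Tbx3 at chr5:119670669-119684724 on the plus strand. Glul lies at chr1:153899944-153909723 on the plus strand, Oat at chr7:132557478-132576398 on the minus strand, Slc1a2 at chr2:102658659-102790784 on the plus strand and Rhbg at chr3:88242874-88254709 on the minus strand. All are protein-coding genes, and the exon lengths used here take in all their annotated exons. The exons of Rhbg share 61.4% of their bases with Gm38392 on the same strand, so its counts are uncertain. Antisense genes share 3.80% of the exon bases of Axin2, 1.74% of Tbx3 and 1.44% of Slc1a2, and an opposite-strand coding gene, Teddm2, shares 3.49% of those of Glul.

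The promoters of the feedback genes are shown because Axin2 and Rnf43 moved together in the comparisons that follow, and that of Slc1a2 because it alone held a motif that was searched for. The RefSeq promoter table of GRCm38.p6 held 6 promoters for 5 of the 9 members (Axin2, Glul, Oat, Rnf43 and Slc1a2). Each window runs 5′ to 3′ from 250 bases before the transcription start to 50 after its first base, 300 bases in all. The windows shown are chr11:108920099-108920398 (Axin2), chr11:87662837-87663136 (the upstream of 2 Rnf43 starts) and chr2:102706188-102706487 (Slc1a2), all on the plus strand, and capitals mark the motif match. The Slc1a2 window belongs to a start inside the gene, downstream of the first base of the gene at 102658659.
Axin2: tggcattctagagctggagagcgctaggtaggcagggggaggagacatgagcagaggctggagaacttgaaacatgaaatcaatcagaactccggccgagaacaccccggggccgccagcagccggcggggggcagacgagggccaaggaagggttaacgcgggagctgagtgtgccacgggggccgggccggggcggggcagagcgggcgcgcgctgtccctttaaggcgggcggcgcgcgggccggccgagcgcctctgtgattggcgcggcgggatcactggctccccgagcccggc
Rnf43: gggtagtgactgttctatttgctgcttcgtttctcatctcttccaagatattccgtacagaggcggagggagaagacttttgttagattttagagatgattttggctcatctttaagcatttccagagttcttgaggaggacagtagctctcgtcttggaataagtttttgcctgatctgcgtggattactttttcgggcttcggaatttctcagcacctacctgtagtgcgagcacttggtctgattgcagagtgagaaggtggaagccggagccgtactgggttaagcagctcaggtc
Slc1a2: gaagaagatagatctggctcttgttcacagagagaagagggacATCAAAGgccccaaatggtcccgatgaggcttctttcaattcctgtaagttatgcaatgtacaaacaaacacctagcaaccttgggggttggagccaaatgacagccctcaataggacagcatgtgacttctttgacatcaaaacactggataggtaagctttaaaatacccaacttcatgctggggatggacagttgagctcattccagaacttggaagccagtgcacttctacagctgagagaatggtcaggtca
The motifs were the TCF/LEF core letters CTTTGAT and CTTTGAA on either strand, which differ in their last letter, so that the same strand cannot match both at a site. Among all 32817 promoters of the same length, 2840 (8.65%) held a match. The match in the Slc1a2 window reads ATCAAAG, the other strand of CTTTGAT, and begins 207 bases before the start. These letters are not in the other 5 windows of the members.

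Levels are CPM, the reads on a gene scaled to a common library size, with library sizes scaled by TMM. Per kilobase of exon, Oat and Glul had the highest levels in PBS livers and Rhbg the lowest. The length of Rhbg includes the bases shared with Gm38392, so its place per kilobase is uncertain. On that scale Oat averaged 298 ± 67.9 and Glul 252 ± 35.1 CPM per kb (SD, n = 5), Slc1a2 14.2 ± 2.42, Tbx3 8.43 ± 1.67, Rnf43 5.99 ± 0.973, Axin2 3.71 ± 1.10, Znrf3 1.95 ± 0.0881, Lgr5 0.996 ± 0.574 and Rhbg 0.651 ± 0.286. The lowest mean of every member was in the CDDP group, and the highest was in PBS for 4 of them, Axin2, Rnf43, Znrf3 and Tbx3. Of the 45 pairs of neighbouring groups in the 9 orders of means, 44 overlapped in range. The exception was Rnf43 between CRS+ACBP and CDDP.

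A few libraries stood apart. Reads on genes ranged from 13957380 to 18479134 per library. CDDP replicate 5 and CDDP+ACBP replicate 3 had the lowest and the highest TMM factors, 0.701 and 1.19, and some member values in them were far from the rest of their group. Skeletal muscle transcripts were most abundant, with a mean log2 CPM of the markers over 5, in 6 libraries (PBS replicate 2, CRS replicate 1, ACBP replicate 2, CDDP+ACBP replicate 2 and CRS+ACBP replicates 3 and 4), and brain transcripts in ACBP replicate 4. Some libraries under that limit also held muscle transcripts. Their markers summed to 981 CPM in CDDP replicate 5 and 470 CPM in CDDP+ACBP replicate 3, against 6.16 CPM in PBS replicate 4. These libraries stayed in the fits without muscle-rich libraries. Hepatocyte markers had summed levels of 47110 to 106300 CPM in CDDP+ACBP, 88880 to 159000 in CDDP and 77920 to 108000 in PBS.

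**Figure D1:**
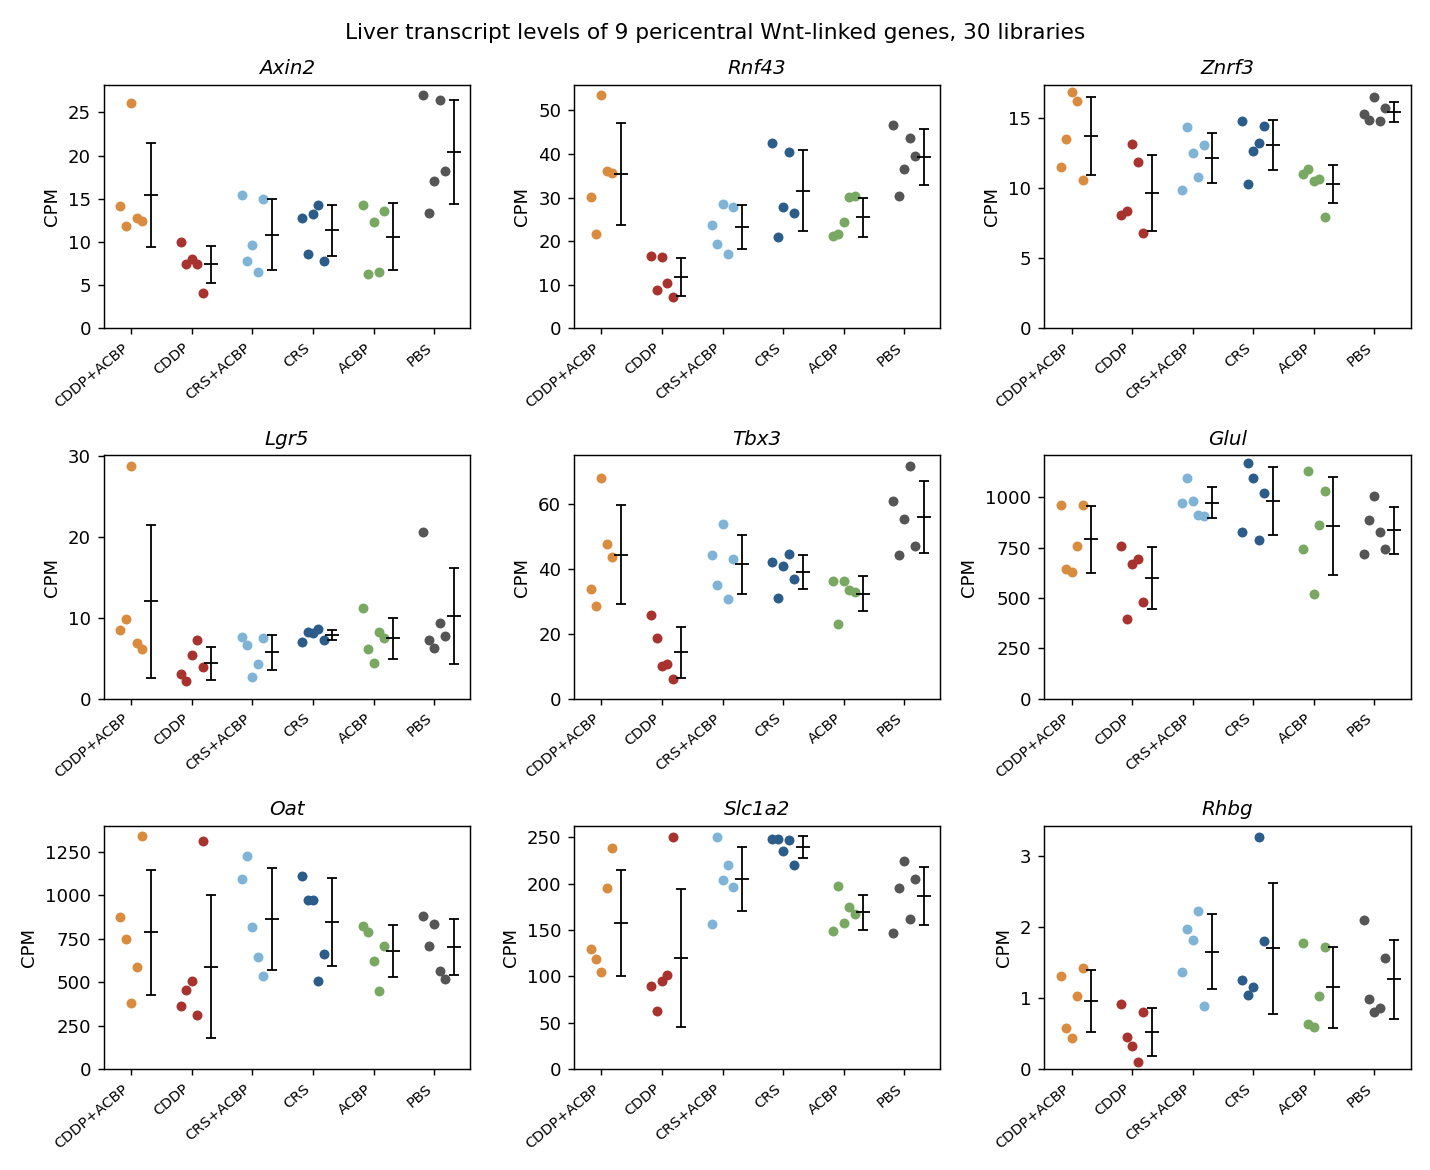
Levels of the 9 genes in CPM (linear axes from 0) in the 6 groups; each point is a library, in order of replicate number, and the bar beside it is the mean ± SD (n = 5). CDDP had the lowest mean in all 9 panels, and CDDP+ACBP replicate 3 (Axin2, Lgr5, Tbx3, Rnf43), CDDP replicate 5 (Oat, Slc1a2) and PBS replicate 1 (Lgr5) are among the points that are the highest of their groups.

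The CDDP group against PBS asks what cisplatin-induced anorexia changed in these genes. Tbx3, Rnf43, Axin2 and Znrf3 fell in all 30 fits that left out 1 library, 3.92-fold for Tbx3, 3.32-fold for Rnf43, 2.75-fold for Axin2 and by 0.68 on the log2 scale for Znrf3 with all libraries, while Lgr5, Rhbg, Slc1a2 and Glul fell with calls that depended on single libraries, and Oat was not called. At an adjusted p under 0.05 in edgeR's quasi-likelihood test, 8 of 9 members were lower in CDDP livers and none was higher. Over all genes tested, 18.3% were called lower and 41.4% were called in either direction. The median log2 difference was -1.22 for the members and 0.02 for all genes tested. In whole liver, fewer pericentral hepatocytes and less RNA of a gene per hepatocyte cannot be told apart, and neither can effects of the drug and of eating less, since no group had food restricted alone.

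Among the feedback genes, Rnf43 had 16.6, 8.75, 16.2, 10.4 and 7.10 CPM in CDDP livers, against 46.6, 30.2, 36.4, 43.6 and 39.4 CPM in PBS livers. Every CDDP library was below every PBS library, and the difference was -1.73 ± 0.24 (log2, approximate SE; edgeR adjusted p = 4.23e-06). Axin2 had 10.01, 7.47, 8.01, 7.46 and 4.03 CPM in CDDP livers, against 27.03, 13.4, 17.02, 26.5 and 18.2 CPM in PBS livers. These groups did not overlap either (-1.46 ± 0.30, edgeR adjusted p = 0.000321). Znrf3, the sister ligase of Rnf43, had 8.08, 8.36, 13.1, 11.8 and 6.78 CPM in CDDP livers, against a narrow 15.3, 14.8, 16.5, 14.8 and 15.7 CPM in PBS livers. The groups did not overlap, and the difference was smaller in size than that of Rnf43 (-0.68 ± 0.17, edgeR adjusted p = 0.00217).

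Tbx3 showed the largest difference of the 9, with 25.8, 18.6, 9.93, 10.6 and 6.13 CPM in CDDP livers, against 60.9, 44.2, 55.5, 71.7 and 47.0 CPM in PBS livers. The groups did not overlap, and the difference was -1.97 ± 0.27 (edgeR adjusted p = 3.3e-06). Lgr5, the R-spondin receptor, had 3.07, 2.17, 5.43, 7.26 and 3.87 CPM in CDDP livers, against 20.6, 7.27, 6.27, 9.30 and 7.69 CPM in PBS livers. PBS replicate 1 lay far above the other PBS libraries and 1 CDDP library reached into the PBS range. Lgr5 fell by 1.22 ± 0.39 (log2, edgeR adjusted p = 0.0141), but without PBS replicate 1 the difference was -0.80 (edgeR adjusted p = 0.0987) and no longer called. Groups were without overlap for 4 of the 9 members, Axin2, Rnf43, Znrf3 and Tbx3, and for 24.6% of all genes tested.

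Of the genes of ammonia capture, Glul had 756, 396, 669, 692 and 482 CPM in CDDP livers, against 719, 886, 1008, 830.3 and 742 CPM in PBS livers. The ranges overlapped, and the fall of 0.48 ± 0.20 (log2, edgeR adjusted p = 0.0471) was lost in 18 of 30 fits that left out 1 library (edgeR adjusted p from 0.0243 to 0.146). Slc1a2 had 89.5, 63.0, 95.0, 101 and 249.9 CPM in CDDP livers, against 147, 196, 225, 162 and 205 CPM in PBS livers. In 4 of the 5 CDDP libraries it lay below all PBS libraries and in CDDP replicate 5 above them all (-0.64 ± 0.25, edgeR adjusted p = 0.0428). Without that library the difference was -1.10 (edgeR adjusted p = 0.000119), while leaving out PBS replicate 2, 3 or 5 or CDDP replicate 1, 2, 3 or 4 ended the call, with edgeR adjusted p from 0.0683 to 0.136.

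Oat alone was not called. It had 363, 458, 508, 312 and 1312 CPM in CDDP livers, against 883, 708, 836, 567 and 518 CPM in PBS livers, a difference of -0.25 ± 0.33 (edgeR adjusted p = 0.574). The first 4 CDDP libraries were below all PBS libraries, and without CDDP replicate 5 the difference was -0.77 (edgeR adjusted p = 0.0399). Rhbg, the lowest of the members, had 0.910, 0.446, 0.329, 0.101 and 0.807 CPM in CDDP livers, against 2.09, 0.989, 0.799, 0.863 and 1.56 CPM in PBS livers. The ranges overlapped slightly (-1.30 ± 0.48, edgeR adjusted p = 0.0319), and leaving out PBS replicate 1 or 5 or CDDP replicate 2, 3 or 4 ended the call, with edgeR adjusted p from 0.0636 to 0.106. Axin2, Rnf43, Znrf3 and Tbx3 were called in all 30 such fits. With no filter on low counts, and with only the 2 groups in the fit, Glul, Slc1a2 and Rhbg were not called (edgeR adjusted p from 0.057 to 0.125), and a required fold of at least 1.5 (glmTreat) left Axin2, Rnf43 and Tbx3. Glul was not called in limma voom with quality weights either (-0.35, adjusted p = 0.132).

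Other measures of these livers moved with the groups. Mitochondrial transcripts made up 3.44% ± 0.422 of the reads on genes in CDDP livers, against 11.5% ± 1.85 in PBS livers (SD, n = 5), and all 12 mitochondrial mRNAs tested fell. Markers of stellate cells fell in 6 of 11 tested genes, those of Kupffer cells in 6 of 10 with 1 higher, and those of sinusoidal endothelium in 6 of 13 with 1 higher. Their sums were 142 to 314 CPM in CDDP and 383 to 776 CPM in PBS livers for stellate cells, and 194 to 291 CPM in CDDP and 339 to 408 CPM in PBS livers for Kupffer cells. The summed level of the 13 sinusoidal markers was 213 to 382 CPM in CDDP and 407 to 503 CPM in PBS livers. Of the 8 markers of central vein endothelium, 2 fell and 1 was higher, and their sum was 15.7 to 54.0 CPM in CDDP and 31.0 to 46.1 CPM in PBS livers. Of the 10 hepatocyte markers, 5 were higher and 2 fell, with a median log2 difference of 0.45. Muscle markers fell in 2 of 18 genes tested and none was higher, with sums of 4.44 to 981 CPM in CDDP and 6.16 to 12020 CPM in PBS livers. Of all genes tested, 18.3% were called lower and 23.1% higher. The part of the mitochondrial transcripts and cell markers in the fall of the members was not tested. Without the 7 libraries rich in muscle or brain transcripts, 6 members were still called lower, and Glul (-0.46, edgeR adjusted p = 0.110) and Slc1a2 (-0.63, edgeR adjusted p = 0.101) were not.

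The CDDP+ACBP group against CDDP asks whether the ACBP pump altered these genes in mice that received cisplatin. The feedback and receptor genes and Tbx3 were higher with ACBP, 3.11-fold for Tbx3, 2.99-fold for Rnf43, 2.75-fold for Lgr5, 2.08-fold for Axin2 and 1.42-fold for Znrf3. These 5 of 9 members were called higher and none lower, while 14.9% of all genes tested were called higher and 33.8% were called in either direction. Glul, Oat, Slc1a2 and Rhbg were not called. The median log2 difference was 0.89 for the members and -0.01 for all genes tested. This comparison shares its CDDP libraries with that of CDDP against PBS, so the 2 sets of differences are not independent.

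Rnf43 had 30.1, 21.7, 53.5, 36.2 and 35.5 CPM in CDDP+ACBP livers, and the CDDP values given earlier, at most 16.6 CPM, lay below all of them (1.58 ± 0.24, edgeR adjusted p = 2.5e-05). Tbx3 had 33.8, 28.5, 67.9, 47.7 and 43.7 CPM in CDDP+ACBP livers, again without overlap with CDDP (1.64 ± 0.27, edgeR adjusted p = 5.29e-05). Both were called in all 30 fits that left out 1 library. For Axin2 the CDDP+ACBP libraries held 14.2, 11.8, 26.04, 12.8 and 12.4 CPM, all above CDDP (1.06 ± 0.30, edgeR adjusted p = 0.00688). Axin2 was also called in all 30 such fits, but not when CDDP+ACBP replicate 3 and CDDP replicate 5 were left out together (0.63, edgeR adjusted p = 0.105). Groups were without overlap for these 3 members and for 14.1% of all genes tested.

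Lgr5 had 8.44, 9.83, 28.8, 6.89 and 6.16 CPM in CDDP+ACBP livers, of which replicate 3 lay far above the rest, and CDDP reached 7.26 CPM. The difference was 1.46 ± 0.40 (edgeR adjusted p = 0.00555), and without CDDP+ACBP replicate 3 it was 0.84 and not called (edgeR adjusted p = 0.067). Znrf3 had 11.5, 13.5, 16.9, 16.2 and 10.6 CPM in CDDP+ACBP livers and overlapped with CDDP (0.51 ± 0.17, edgeR adjusted p = 0.0202). Leaving out CDDP replicate 2 or 5 or CDDP+ACBP replicate 3 or 4 ended its call, with edgeR adjusted p from 0.0562 to 0.0656. In limma voom with quality weights, Axin2, Lgr5 and Znrf3 were not called (adjusted p = 0.0895, 0.0654 and 0.319), and glmTreat left Rnf43, Tbx3 and Lgr5. Znrf3 was also not called with only the 2 groups in the fit or without the muscle- or brain-rich libraries (edgeR adjusted p = 0.131 and 0.0576). Lgr5 and Znrf3 were not called without CDDP+ACBP replicate 3 and CDDP replicate 5 together (edgeR adjusted p = 0.111 and 0.160).

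The ammonia genes spread widely in both groups. Glul had 964, 643, 627, 761 and 962 CPM in CDDP+ACBP livers (0.40 ± 0.19 against CDDP, edgeR adjusted p = 0.111). Oat had 877, 749, 382, 588 and 1342 CPM and Slc1a2 129, 118, 105, 195 and 238 CPM in CDDP+ACBP livers. In both, CDDP replicate 5 was near or above the highest of these values, and the differences were 0.42 ± 0.33 for Oat and 0.39 ± 0.25 for Slc1a2 (edgeR adjusted p = 0.352 and 0.237). Without CDDP replicate 5 they were 0.94 and 0.85 and both were called (edgeR adjusted p = 0.0179 and 0.00208), as they were in limma voom (adjusted p = 0.0318 and 0.0155). Rhbg had 1.31, 0.584, 0.435, 1.02 and 1.43 CPM in CDDP+ACBP livers (0.89 ± 0.48, edgeR adjusted p = 0.156). Mitochondrial transcripts, 9.19% ± 3.02 of reads in CDDP+ACBP livers against 3.44% ± 0.422 in CDDP livers (SD, n = 5), moved with this comparison too, and 10 of 12 mitochondrial mRNAs tested, 4 of 11 stellate markers (none lower) and 5 of 13 sinusoidal markers (1 lower) were higher. Of 10 hepatocyte markers 5 were lower and 1 higher, with a median log2 difference of -0.53, and of 10 Kupffer markers 2 were higher and 1 lower. Of all genes tested, 14.9% were called higher and 18.8% lower. The part of the mitochondrial transcripts and cell markers in the result was not tested.

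**Figure D2:**
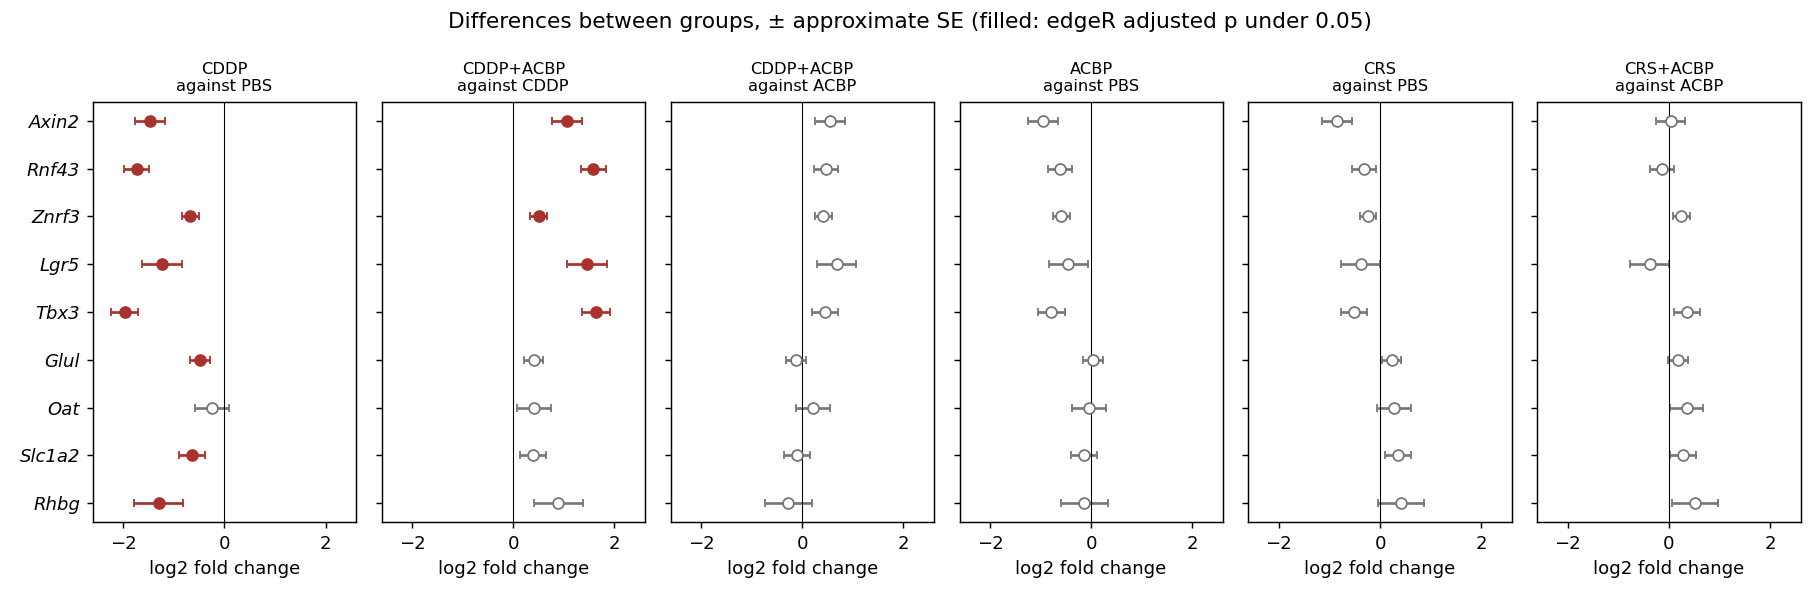
Log2 fold changes ± approximate SE of the 9 genes in 6 comparisons; filled red points have an edgeR adjusted p under 0.05, open grey points do not. The 8 calls in CDDP against PBS lie left of 0 and the 5 calls in CDDP+ACBP against CDDP right of it, and the other 4 panels hold no call.

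ACBP by itself, against PBS, gave no call among the members or among all 16304 genes tested in edgeR, in which 4 members and 714 genes had an unadjusted p under 0.05. DESeq2 called 9 genes and limma voom with quality weights 2, none of them a member. The 4 members were Znrf3, Axin2, Tbx3 and Rnf43, all with negative differences, and exact 2-sided permutation tests of log2 CPM gave the same 4 an unadjusted p from 0.00794, the smallest such a test can give, to 0.0238. Znrf3 had 10.98, 11.3, 10.5, 10.6 and 7.92 CPM in ACBP livers (-0.59 ± 0.17 against PBS, edgeR adjusted p = 0.853), every library below the lowest PBS value of 14.8 CPM. Tbx3 had 36.3, 22.9, 36.3, 33.6 and 32.9 CPM in ACBP livers, all below the lowest PBS value of 44.2 CPM (-0.79 ± 0.26, edgeR adjusted p = 0.999). Ranges were apart in 1.78% of all genes tested. Axin2 had 14.3, 6.28, 12.3, 6.52 and 13.5 CPM and Rnf43 21.2, 21.6, 24.3, 30.2 and 30.3 CPM in ACBP livers, and both overlapped with PBS by 1 or more libraries.

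CDDP+ACBP against ACBP sets the cisplatin mice against controls with the same pump. In edgeR no member was called, 1 (Znrf3) had an unadjusted p under 0.05, and 0.129% of all genes tested were called. Of all genes tested, 4.85% had an unadjusted p under 0.05 in edgeR. DESeq2 and limma voom called no member either, and an exact 2-sided permutation test of log2 CPM gave Znrf3 an unadjusted p of 0.0397 (0.40). The log2 differences of Rnf43, Tbx3, Axin2, Znrf3 and Lgr5 were above 0 here, at 0.47 ± 0.24, 0.45 ± 0.26, 0.54 ± 0.29, 0.42 ± 0.17 and 0.68 ± 0.39 (edgeR adjusted p from 0.809 to 1).

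Whether the cisplatin difference itself depended on the pump was tested as an interaction, the log2 difference of CDDP+ACBP from ACBP less that of CDDP from PBS. It was called for the same 5 genes that differed between CDDP+ACBP and CDDP, all above 0, while 8.38% of all genes tested were called above 0 and 19.7% in either direction. The interaction contains that difference and uses the same libraries, so the shared genes are not an independent result. Tbx3 had an interaction of 2.42 ± 0.38 (edgeR adjusted p = 0.000144), Rnf43 of 2.204 ± 0.34 (edgeR adjusted p = 0.000135), Axin2 of 2.005 ± 0.42 (edgeR adjusted p = 0.00171) and Znrf3 of 1.09 ± 0.24 (edgeR adjusted p = 0.00241). These 4 were called in all 30 fits that left out 1 library. Lgr5 had 1.91 ± 0.55 (edgeR adjusted p = 0.016), and without CDDP+ACBP replicate 3 the value was 1.29 and not called (edgeR adjusted p = 0.061). For Glul, Oat, Slc1a2 and Rhbg the interaction was from 0.37 to 1.02 and not called, and without CDDP replicate 5 that of Slc1a2 was 0.99 and called (edgeR adjusted p = 0.0114). In limma voom, Lgr5 was not called (1.28, adjusted p = 0.0554) and Slc1a2 was (0.76, adjusted p = 0.028), and glmTreat left Axin2, Rnf43 and Tbx3. Without CDDP+ACBP replicate 3 and CDDP replicate 5 together, Oat (1.16, edgeR adjusted p = 0.0351) and Slc1a2 (1.11, edgeR adjusted p = 0.00501) were called and Lgr5 was not (edgeR adjusted p = 0.081). Each interaction has 2 sides: in Axin2 the difference from the matching control was 0.54 with the ACBP pump and -1.46 with the PBS pump, while ACBP alone lay 0.95 below PBS without a call.

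**Figure D3:**
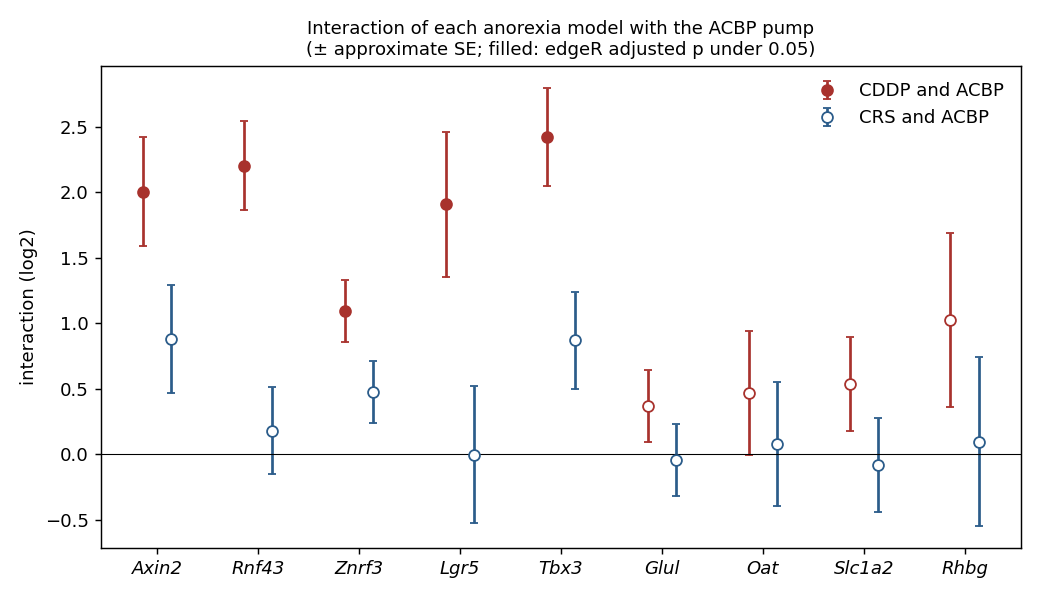
Interaction of each anorexia model with the ACBP pump on the log2 scale, ± approximate SE, with CDDP in red and CRS in blue; filled points have an edgeR adjusted p under 0.05. The red points of Axin2, Rnf43, Znrf3, Lgr5 and Tbx3 are filled, from 1.09 to 2.42, and no blue point is.

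In CRS livers the members differed from PBS by less than the edgeR threshold: 0 of 9 were called in edgeR, 1 (Axin2) had an unadjusted p under 0.05, and 0.141% of all genes tested were called. DESeq2 called none, but limma voom with quality weights called Axin2 (-1.01, adjusted p = 0.00713) and Tbx3 (-0.60, adjusted p = 0.0422) lower, among 930 genes. Exact 2-sided permutation tests of log2 CPM gave Axin2 (-0.83), Tbx3 (-0.50), Znrf3 (-0.25) and Slc1a2 (0.38) an unadjusted p of 0.0159 each. These tests were run on the members only, so they have no share over all genes. In edgeR, 1462 genes, 8.97% of those tested, had an unadjusted p under 0.05 in CRS against PBS. Axin2 had 12.8, 8.59, 13.2, 14.2 and 7.80 CPM in CRS livers, overlapping PBS by 1 library on either side, with a difference of -0.85 ± 0.29 (edgeR adjusted p = 0.351). Tbx3 had 42.0, 31.0, 40.9, 44.5 and 37.0 CPM in CRS livers, just reaching the lowest PBS library (-0.52 ± 0.26, edgeR adjusted p = 0.566). Slc1a2 was not called and had a difference above 0, with 248, 248, 235, 247 and 220.2 CPM in CRS livers (0.36 ± 0.25, edgeR adjusted p = 0.702).

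With the ACBP pump, CRS+ACBP against ACBP and against CRS gave in edgeR no call of a member, no member with an unadjusted p under 0.05, and no called gene out of 16304, of which 1194 and 468 had an unadjusted p under 0.05. An exact 2-sided permutation test of log2 CPM gave Lgr5 an unadjusted p of 0.0476 in CRS+ACBP against CRS (-0.54). DESeq2 called 20 and 1 genes and limma voom 19 and 3 in these comparisons, none a member. Means in CRS+ACBP livers were 10.8 ± 4.12 CPM for Axin2, 23.3 ± 5.13 for Rnf43, 12.1 ± 1.79 for Znrf3, 5.75 ± 2.16 for Lgr5 and 41.4 ± 9.03 for Tbx3 (SD, n = 5). The enzyme and transporter genes averaged 974 ± 75.5 CPM for Glul, 864 ± 293 for Oat, 205 ± 34.6 for Slc1a2 and 1.65 ± 0.529 for Rhbg. The interaction of CRS and ACBP was called for no gene, with 2 members (Tbx3 and Axin2) and 388 genes at an unadjusted p under 0.05, and by DESeq2 for 4 and limma voom for 1 gene, no member among them.

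The models were also set against each other, CDDP against CRS. Of the members, 6 were lower in CDDP livers and none higher, against 15.1% of all genes tested called lower and 34.6% in either direction. The largest differences were those of Rhbg (-1.72 ± 0.48, edgeR adjusted p = 0.00681), Tbx3 (-1.45 ± 0.27, edgeR adjusted p = 0.000162) and Rnf43 (-1.42 ± 0.24, edgeR adjusted p = 6.91e-05). Glul was lower (-0.71 ± 0.20, edgeR adjusted p = 0.00579), with 829, 1170.0, 1098, 786 and 1023 CPM in the CRS livers, all above the highest CDDP value of 756 CPM. Slc1a2 fell by 1.002 ± 0.26 on the log2 scale (edgeR adjusted p = 0.00326). Znrf3 (-0.44 ± 0.17, edgeR adjusted p = 0.0439) lost its call in 10 of 30 fits that left out 1 library, with adjusted p up to 0.126, and also with no filter on low counts, in limma voom, with only the 2 groups in the fit and without the muscle- or brain-rich libraries (adjusted p from 0.103 to 0.208). Requiring a fold of at least 1.5 left Rhbg, Tbx3 and Rnf43, and limma voom also called Oat lower (-0.89, adjusted p = 0.00864). Oat became called (-1.04, edgeR adjusted p = 0.00895) without CDDP replicate 5, and Lgr5 without CDDP replicate 4 (-1.11, edgeR adjusted p = 0.0433) or CDDP+ACBP replicate 3 (-0.84, edgeR adjusted p = 0.0456). Groups were without overlap for Glul, Tbx3, Rnf43 and Rhbg, and for 19.2% of all genes tested.

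The rest of the pathway was read from lists of its parts. In CDDP against PBS, 18.3% of all genes tested were called lower and 23.1% higher, the shares to set beside the counts of each list. In the list of feedback and secreted inhibitors, 3 of 9 tested genes fell in CDDP against PBS and none was higher, and 9 more of the 18 listed were too low to test. The 3 were Notum, a secreted enzyme that removes the lipid Wnt needs, Nkd1, a cytoplasmic inhibitor that binds Dishevelled, and Sp5, a transcription factor and Wnt target. Notum averaged 36.4 ± 9.12 CPM in CDDP and 129 ± 38.0 CPM in PBS livers (-1.82 ± 0.27, edgeR adjusted p = 8.53e-06). Nkd1 fell by 1.73 ± 0.27 (log2, edgeR adjusted p = 1.59e-05) and Sp5 by 1.85 ± 0.30 (log2, edgeR adjusted p = 2.06e-05). All 3 were higher in CDDP+ACBP than in CDDP livers, Notum at 132 ± 65.3 CPM (1.86 ± 0.27, edgeR adjusted p = 1.36e-05), and all 3 had a called interaction, of 2.44, 1.53 and 2.31.

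Of 12 tested Wnt and R-spondin genes, 1 was higher in CDDP than in PBS livers and none lower. This was Wnt5b, a ligand best known for beta-catenin-independent signalling (0.68 ± 0.24, edgeR adjusted p = 0.0234). Wnt2, a ligand of the central vein, averaged 1.68 ± 0.627 CPM in CDDP and 2.11 ± 0.720 CPM in PBS livers. Wnt9b averaged 1.57 ± 0.904 CPM in CDDP and 1.68 ± 0.364 CPM in PBS livers, and Rspo3 3.94 ± 2.14 CPM in CDDP and 2.48 ± 0.611 CPM in PBS livers (SD, n = 5). At these low levels none of the 3 was called (edgeR adjusted p = 0.500, 0.881 and 0.191, in that order of genes).

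Receptors fell more often than they were higher, 6 against 1 of 12 tested genes. Fzd4 averaged 10.4 ± 4.39 CPM in CDDP and 27.9 ± 7.71 CPM in PBS livers (-1.42 ± 0.31, edgeR adjusted p = 0.000688), and Fzd7 (-0.94 ± 0.28) and Fzd8 (-0.78 ± 0.24) also fell. The exception was the co-receptor gene Lrp5, higher at 55.6 ± 8.25 CPM in CDDP, against 23.5 ± 5.82 CPM in PBS livers (1.24 ± 0.24, edgeR adjusted p = 0.000204). In CDDP+ACBP against CDDP livers, Fzd4 (1.40 ± 0.31) and Fzd8 (0.88 ± 0.24) were higher and Lrp5 lower (-0.92 ± 0.24).

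Inside the cell, 3 of 21 genes of the destruction complex and TCF factors were higher and 8 lower in CDDP against PBS. Ctnnb1, the beta-catenin gene, was higher at 147 ± 46.6 CPM in CDDP, against 90.1 ± 6.76 CPM in PBS livers (0.71 ± 0.17, edgeR adjusted p = 0.00174). Tcf7l2, the main TCF factor gene of hepatocytes, fell to 14.7 ± 3.60 CPM in CDDP, against 34.0 ± 4.96 CPM in PBS livers (-1.21 ± 0.19, edgeR adjusted p = 1.63e-05). The scaffold gene Axin1, the constitutive relative of Axin2, was higher in CDDP (1.04 ± 0.20, edgeR adjusted p = 0.000201) while Axin2 fell. With ACBP these differences ran the other way: against CDDP livers, CDDP+ACBP livers had less Ctnnb1 (-0.71 ± 0.17) and Axin1 (-0.81 ± 0.20) and more Tcf7l2 (1.28 ± 0.19), with edgeR adjusted p from 1.67e-05 to 0.00295. In CRS against PBS and ACBP against PBS, no ligand, receptor or feedback gene was called in edgeR, and 2 and 4 of the 33 tested had an unadjusted p under 0.05. The shares of all genes tested with an unadjusted p under 0.05 were 8.97% and 4.38%, in that order.

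Pericentral genes as a class did not share one direction. Of 18 other pericentral genes, 5 fell and 3 were higher in CDDP against PBS, with a median log2 difference of 0.06. Their summed level, in which abundant genes weigh most, did not overlap between these groups. It was 2656 to 4347 CPM in CDDP, 4625 to 6198 CPM in PBS and 4108 to 6680 CPM in CDDP+ACBP livers. Of all genes tested, 18.3% were called lower and 23.1% higher in that comparison. Nr1i3, which encodes the xenobiotic receptor CAR, fell to 442 ± 149.6 CPM in CDDP, against 1448 ± 133 CPM in PBS livers (-1.71 ± 0.27, edgeR adjusted p = 1.63e-05), and was higher in CDDP+ACBP than in CDDP livers (1.35 ± 0.27). Slc13a3, a dicarboxylate transporter gene, was higher (0.84 ± 0.25, edgeR adjusted p = 0.00834). Of 12 pericentral cytochromes, 4 fell and 1 was higher, and their sum was 6553 to 12510 CPM in CDDP and 7154 to 11560 CPM in PBS livers. Cyp1a2 fell (-1.83 ± 0.48, edgeR adjusted p = 0.00352), as did Cyp2c54 and Cyp2c37, while Cyp2e1, a classical pericentral gene, averaged 2819.7 ± 813 CPM in CDDP and 2798 ± 886 CPM in PBS livers (0.01 ± 0.27, edgeR adjusted p = 0.978).

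**Figure D4:**
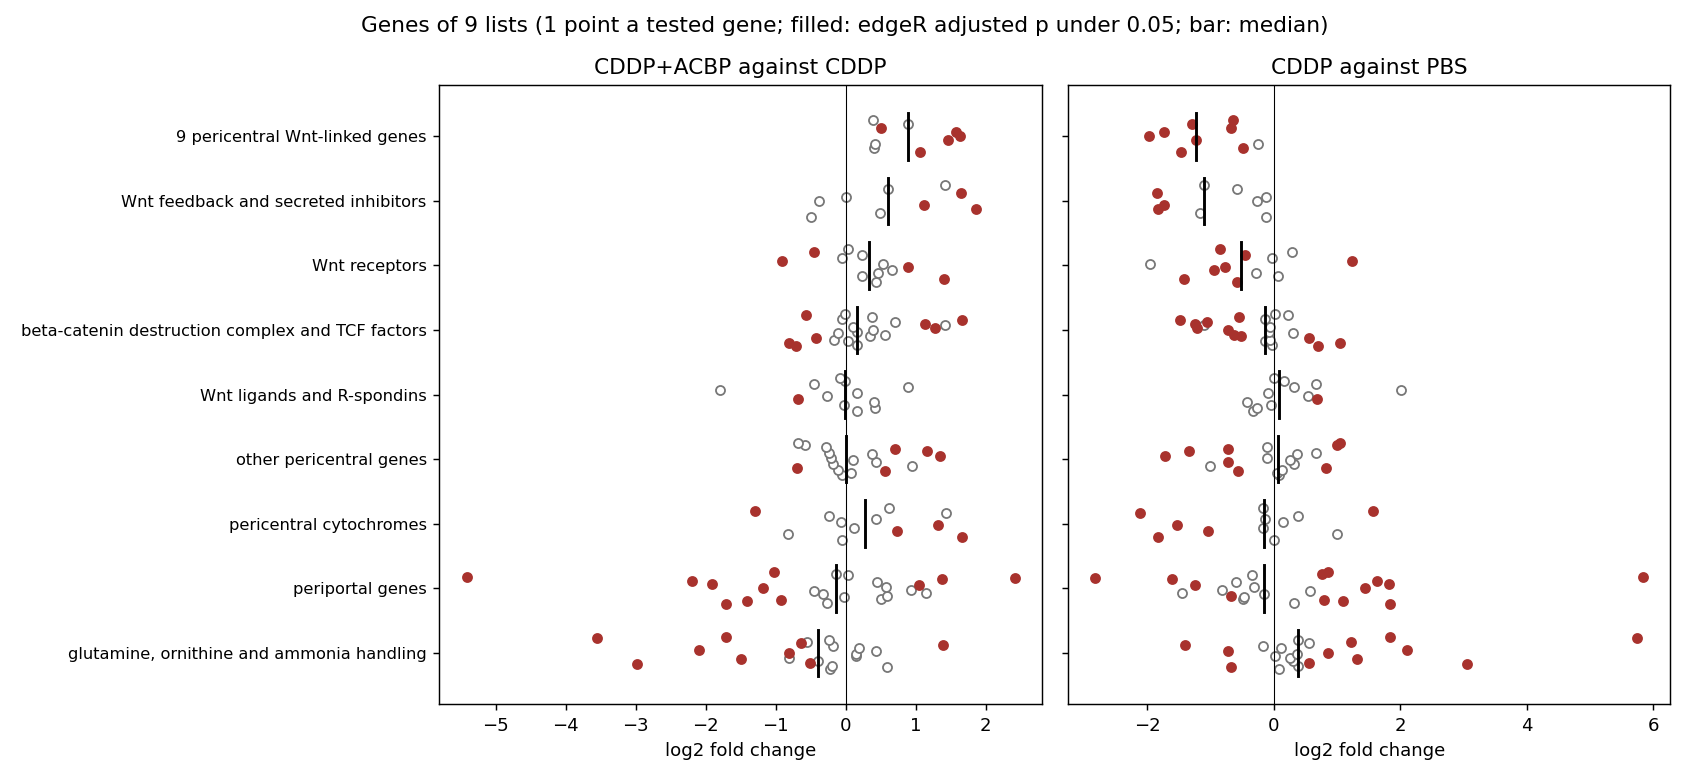
Log2 fold changes of the tested genes of 9 lists in CDDP+ACBP against CDDP and in CDDP against PBS; each point is a gene, filled where the edgeR adjusted p is under 0.05, and the bar is the list's median. In CDDP against PBS the 9 members lie left of 0 with a median of -1.22, whereas the other pericentral genes have a median of 0.06 and the periportal genes are spread on both sides.

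Periportal genes, the opposite pole of the lobule, were higher in 9 and lower in 4 of 23 cases in CDDP against PBS. Their median log2 difference was -0.15, and 23.1% of all genes tested were called higher and 18.3% lower. Cps1, the entry enzyme of the urea cycle, was higher at 2909 ± 328 CPM in CDDP, against 815 ± 142 CPM in PBS livers (1.84 ± 0.25, edgeR adjusted p = 2.49e-06). Gls2, the liver glutaminase that frees ammonia from glutamine, fell (-0.68 ± 0.26, edgeR adjusted p = 0.0374), and Cyp2f2 was not called (-0.81 ± 0.38, edgeR adjusted p = 0.0881). Among 21 tested genes of glutamine, ornithine and ammonia handling, the wider metabolic setting of Glul and Oat, 8 were higher and 3 lower. Odc1, which turns ornithine into putrescine, averaged 88.9 ± 47.1 CPM in CDDP and 20.6 ± 4.15 CPM in PBS livers (2.11 ± 0.28, edgeR adjusted p = 1.85e-06), and Slc38a3, a glutamine transporter gene, fell by 1.41 ± 0.18 (log2, edgeR adjusted p = 1.86e-06). Against CDDP, CDDP+ACBP livers had less Cps1 (-1.72 ± 0.25) and Odc1 (-2.10 ± 0.28) and more Slc38a3 (1.39 ± 0.18), each called.

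The genes whose pattern over the 30 libraries was most like that of a member, by Pearson's r of log2 CPM, were for Tbx3 the chemokine gene Cxcl11 (r = 0.911) and Mettl17 (r = 0.895), for Rnf43 Acsm5, Lrp4 and Epha1 (r from 0.897 to 0.908), and for Axin2 Myadml2os, Gigyf1 and Arhgap33 (r from 0.810 to 0.836). Glul was most like Slc22a7 (r = 0.841) and Mbl1 (r = 0.832), Oat most like Lhpp (r = 0.801), Lgr5 most like Ddx11 (r = 0.827), Znrf3 most like Pabpn1 (r = 0.790), Rhbg most like Lppos (r = 0.795) and Slc1a2 most like D530033B14Rik (r = 0.885) and Map2k3 (r = 0.883). These values describe libraries that share groups, depth and composition.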

How the data were processed

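Liver mRNA of 30 libraries, 5 in each of 6 treatment groups, was read from a table of raw counts per gene that the authors deposited without normalization. Per the submitters' processing notes, the authors used HISAT2 2.2.1 and HTSeq 2.0.3 with build mm10, and the labels call the libraries strand-specific. The sources used here give no counting settings, so antisense and overlapping genes are uncertain. Reads on genes made up a median of 38.0% of the table, 43.4% on no feature, 11.0% aligned to more than 1 place, 3.67% had too low a quality, 2.03% were not aligned and 1.67% were ambiguous, and these lines were left out. Coordinates and exon lengths came from GENCODE vM21, which matched 99.2% of identifiers.

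The quasi-likelihood F test of edgeR 4.0.16 (R 4.3.3), after TMM scaling and the filterByExpr filter, was fitted to all 6 groups together, which left 24 residual degrees of freedom. A gene was called at a Benjamini-Hochberg adjusted p under 0.05 over all genes of a comparison. The SE is approximate, the size of the log2 change divided by the root of F. No 2 libraries of a group agreed within sampling noise (smallest chi-square per degree of freedom 21.1). The members and gene lists were chosen with earlier results of these data known. Of each list, genes of a defining role and those called with the smallest p could be named, and for likeness the genes of highest r. Alternatives were RLE normalization, other filters on low counts, DESeq2 1.42.0, glmTreat with a 1.5-fold minimum, limma 3.58.1 voom with quality weights, only the groups compared, exact permutation tests and leaving out each library. Added after seeing the data were fits without the 7 muscle- or brain-rich libraries (muscle score over 5, or ACBP replicate 4) and without CDDP replicate 5 and CDDP+ACBP replicate 3. The test was tried on simulated counts. Promoters came from RefSeq (GRCm38.p6). Figures were drawn with matplotlib 3.10.9 in Python 3.11.15.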

Additional observations from a re-analysis of the deposited data

Results flagged for a closer look

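In 7 of 54 sets of 5 libraries (9 genes in 6 groups) the highest or lowest library stood apart from the rest by more than Dixon's critical share of the range, 0.71. Independent, normally distributed values pass that limit by chance in about 5% of sets. CPM need not be normally distributed and the 54 sets share the same 30 libraries, so 7 of 54 cannot be set against that 5%. CDDP+ACBP replicate 3 was high for Axin2 (26.04 CPM, the others at most 14.2) and Lgr5 (28.8 CPM, the others at most 9.83). CDDP replicate 5 was high for Oat (1312 CPM, the others at most 508) and Slc1a2 (249.9 CPM, the others at most 101). PBS replicate 1 was high for Lgr5 (20.6 CPM, the others at most 9.30). In the ACBP group, replicate 2 was low for Tbx3 (22.9 CPM, the others at least 32.9) and replicate 5 low for Znrf3 (7.92 CPM, the others at least 10.5).

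The difference that cisplatin made depended on the pump for 5 genes by edgeR's interaction test, with log2 values of 2.42 for Tbx3, 2.204 for Rnf43, 2.005 for Axin2, 1.91 for Lgr5 and 1.09 for Znrf3. The value for Lgr5 without CDDP+ACBP replicate 3 was 1.29 and not called (edgeR adjusted p = 0.061).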

How the results depend on the processing

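The counts of members called were 8 in CDDP against PBS, 5 in CDDP+ACBP against CDDP, 6 in CDDP against CRS and 5 in the interaction of CDDP and ACBP, and RLE normalization, a filter of 1 CPM in 5 libraries and DESeq2 left all 4 as they were. In CDDP against PBS the count was 5 without a filter on low counts and 5 with only the groups compared. Requiring a fold of at least 1.5 (glmTreat) left 3 in each of the 4 comparisons. Leaving out 1 library gave 5 to 8 in CDDP against PBS (5 without PBS replicate 5 or CDDP replicate 2), 3 to 6 in CDDP+ACBP against CDDP (3 without replicate 3 of CDDP+ACBP), 5 to 7 in CDDP against CRS and 4 to 6 in the interaction. In CRS against PBS, where edgeR called 0, limma voom called 2 and leaving out a library gave 0. Without the muscle- or brain-rich libraries the 4 counts were 6, 4, 5 and 5, and without CDDP replicate 5 and CDDP+ACBP replicate 3 they were 8, 4, 6 and 6. Like counts can hide different members. Without those replicates, Glul lost and Oat gained a call in CDDP against PBS. In CDDP+ACBP against CDDP, Axin2, Lgr5 and Znrf3 lost and Oat and Slc1a2 gained one. Znrf3 lost and Oat gained one in CDDP against CRS, and in the interaction Lgr5 lost and Oat and Slc1a2 gained one. Over 882 values of single members outside the leave-one-out fits, 819 kept their side of the threshold and direction of call. Another 40 lost a call and 23 gained one, and no called value changed sign. For the permutation tests a call here was an unadjusted p under 0.05. The 882 values include comparisons in which edgeR called no member, where no call could be lost, so 819 does not measure how stable the calls were. The causes of the changes were not tested. Exact 2-sided permutation tests of 5 against 5 libraries cannot go below 0.00794, the value for Axin2, Rnf43, Znrf3 and Tbx3 in CDDP against PBS. Precision is limited by 5 libraries a group and, for Rhbg, by a mean under 2 CPM. No paired analysis was possible because the labels number the libraries across all groups and pair none.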

Other observations

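Within their groups some pairs of members varied together from library to library and others in opposite directions, with 17 of 36 pairs below 0. Over deviations from the group means in the 30 libraries, Pearson's r was 0.69 between Axin2 and Tbx3, 0.66 between Tbx3 and Rnf43 and 0.65 between Axin2 and Rnf43, and 0.54 between Oat and Slc1a2. Between the pairs Axin2 and Slc1a2 (-0.60), Tbx3 and Slc1a2 (-0.55) and Oat and Tbx3 (-0.47) it was below 0. Glul was near 0 with Rnf43 (0.04) and Lgr5 (-0.03). These are descriptions of libraries that share depth, composition and a few outlying samples.

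The summed level of the Kupffer cell markers was 182 to 265 CPM in CDDP+ACBP, 194 to 291 CPM in CDDP, 380 to 470 CPM in ACBP and 339 to 408 CPM in PBS livers. Clec4f, a lectin of Kupffer cells, averaged 76.7 ± 20.7 CPM in CDDP+ACBP, 35.4 ± 18.9 CPM in CDDP and 137 ± 14.3 CPM in PBS livers (SD, n = 5). It was lower in CDDP than in PBS livers (-1.95 ± 0.24, edgeR adjusted p = 1.07e-06) and higher in CDDP+ACBP than in CDDP livers (1.11 ± 0.24, edgeR adjusted p = 0.000816). It was 1 of 2 markers called higher there, with 1 lower and 7 not called of 10, and a median log2 difference of -0.07 over the 10. In CDDP against PBS, 6 of the 10 fell and 1 was higher. Against ACBP, the control with the same pump, CDDP+ACBP livers had 5 of the 10 called lower and 0 higher, with a median log2 difference of -0.99. Of all genes tested, 0.0613% were called lower in that comparison. The 5 were C1qa, C1qb, C1qc, Timd4 and Csf1r, and Clec4f was not called (-0.99 ± 0.24, edgeR adjusted p = 0.108).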
